A study of Arabidopsis thaliana with 9 samples.

Results

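The β-amylase family of Arabidopsis thaliana and the starch-phosphorylating enzyme GWD1 were described in leaf nuclei of 2 RNA polymerase mutants and their wild type. The 10 genes, of 32678 in the count tables, were BAM1 (AT3G23920), BAM2 (AT4G00490), BAM3 (AT4G17090), BAM4 (AT5G55700), BAM5 (AT4G15210), BAM6 (AT2G32290), BAM7 (AT2G45880), BAM8 (AT5G45300), BAM9 (AT5G18670) and GWD1 (AT1G10760, also called SEX1). They were taken by locus identifier. The family was chosen by the nascent RNA ratio of mutant to wild type, in which BAM5 was among the lowest genes in both mutants, so the nascent RNA values of BAM5 are given as a description, with no test.

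The groups were the mutants nrpd1-3 and nrpe1-11 and their reference Col-0, the wild-type accession. The mutated genes, NRPD1 and NRPE1, encode the catalytic cores of the plant polymerases Pol IV and Pol V, which serve RNA-directed DNA methylation. Leaves came from plants aged 3 weeks, kept at 22 °C in days of 16 h light and 8 h night. The hour of harvest, on which many starch genes are known to depend, was not in the labels. Nuclear run-on (NRO) labels transcripts that polymerases were already making in isolated nuclei and captures them, and nuclear RNA (RNA) was measured beside it. Each genotype had 1 library per assay, so no difference within an assay had a replicate check.

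Leaf starch is made in the chloroplast by day and broken down at night. Breakdown begins when GWD1 phosphorylates the glucan chains at the granule surface, which opens the granule to β-amylases, and these release maltose for export to the cytosol. In Arabidopsis BAM1 and BAM3 are the main active β-amylases of the chloroplast, while BAM4 and BAM9 are plastid proteins without catalytic activity. BAM5 lies outside the plastid and is known from the phloem, and BAM7 and BAM8 are nuclear proteins that carry a BZR1-type DNA-binding domain.

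Gene counts totalled 8185846 in NRO of the library labelled nrpd1-3, 7504294 in nrpe1-11 and 2687149 in Col-0. RNA was shallower, with 386011 counts in the library labelled nrpd1-3, 493080 in nrpe1-11 and 709905 in Col-0. Levels are CPM, read counts relative to library size, with the sizes adjusted by trimmed mean of M values (TMM), and 3 counts, taken as the limit that a count of 0 allows, were worth 0.322 to 1.49 CPM in NRO and 5.55 to 6.29 CPM in RNA. Intervals on levels and ratios are exact 95% intervals and cover counting error only. A single ribosomal RNA gene, AT3G41768, took 5.53% and 5.67% of the NRO counts in the library labelled nrpd1-3 and in nrpe1-11, against 29.2% in Col-0. Its RNA shares were 37.9%, 43.6% and 53.6% in the same order. TMM limits the weight of such a gene and library totals do not. Reads aligned more than once were 48.4% and 47.8% of the aligned reads in NRO of the mutants, against 79.8% in Col-0. In RNA they were 90.5%, 90.3% and 92.7%. The NRO library of Col-0, used in every NRO ratio to Col-0, thus differed in make-up from both mutant libraries. NRPD1 had 94 NRO counts in the library labelled nrpd1-3 and 19 in nrpe1-11, against 9 in Col-0, so in the library labelled nrpd1-3 it was higher than in Col-0 (log2 ratio 1.2), against what the label leads one to look for, and a whole-gene count does not show which part of the gene was read. NRPE1 had 82 NRO counts in nrpe1-11 and 81 in the library labelled nrpd1-3, against 24 in Col-0, a log2 ratio of -0.43 for nrpe1-11. The leaf label was checked with marker lists. Mesophyll markers were high in every library, and 4 flower markers together had 2 and 1 NRO counts in the library labelled nrpd1-3 and in nrpe1-11, against 6 in Col-0, with 0 in RNA of every library.

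A gene was called higher or lower within an assay when its log2 ratio, computed with a prior count of 2, was at least 1 in size and the interval of its ratio left out 1. Genes needed at least 20 counts in 1 library of the assay. All 10 genes reached that minimum in NRO, and 3 of them, BAM1, BAM3 and GWD1, reached it in RNA. In NRO BAM2 and BAM6 reached it through mutant libraries only and BAM5 through Col-0 only. For NRO of the library labelled nrpd1-3 against Col-0, 2 of the 10 were called lower (BAM5 and BAM6) and 0 higher, beside 6.99% lower and 9.31% higher among all 16083 genes tested. For NRO of nrpe1-11 against Col-0, 1 was called lower (BAM5) and 1 higher (BAM9), beside 11.1% lower and 12.1% higher. BAM5 chose the family and is no evidence of direction in these counts. The median log2 ratio over the 10 genes was -0.33 in the library labelled nrpd1-3 and -0.26 in nrpe1-11, beside 0.03 and 0.04 over all genes. Those medians of the 10 genes take in BAM5 as well, so they are a description and support no direction.

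**Figure D1:**
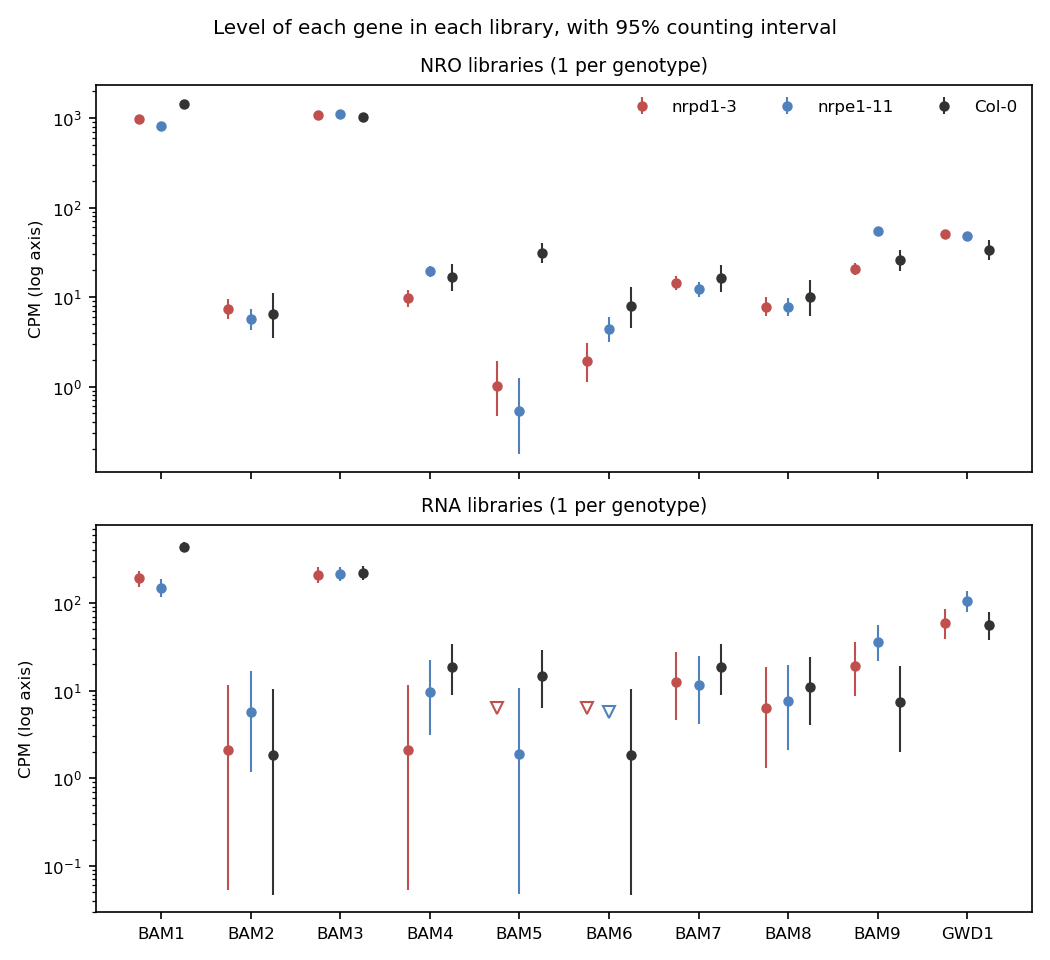
CPM (log axis) of the 10 genes in the 3 NRO libraries (top) and the 3 RNA libraries (bottom), with 95% counting intervals; an open triangle marks a count of 0, drawn at the value of 3 counts. BAM5 stands at 1.02 and 0.536 CPM in NRO of the mutants and at 31.3 CPM in Col-0, and levels are not to be compared between genes, since no length was used.

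BAM5, the extraplastidic enzyme, had 9 NRO counts (1.02 CPM, 0.467 to 1.94) in the library labelled nrpd1-3 and 5 (0.536 CPM, 0.174 to 1.25) in nrpe1-11, against 63 (31.3 CPM, 24.1 to 40.1) in Col-0. Both mutant libraries were low and only the Col-0 library was high, with intervals far apart, although the Col-0 library was the shallowest of the NRO libraries. The scaled ratio to Col-0 was 0.0326 (0.0143 to 0.0659) in the library labelled nrpd1-3 and 0.0171 (0.00537 to 0.0421) in nrpe1-11. These are the values that chose the family.

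By log2 ratio in NRO, BAM5 at -4.58 was rank 2 from the bottom of 16083 genes in the library labelled nrpd1-3, between GSTU4 at -4.71 and AT1G57650 at -4.52. At -5.24 it was rank 4 from the bottom in nrpe1-11, next to AT4G14368 at -5.48. BAM5 made up 0.0482% of all β-amylase counts in the library labelled nrpd1-3 and 0.0264% in nrpe1-11, against 1.21% (0.930 to 1.54) in Col-0. That share does not depend on how the libraries are scaled to each other. Between the mutants the BAM5 ratio was 0.525 for nrpe1-11 over the library labelled nrpd1-3, with an interval of 0.138 to 1.74, so 5 and 9 counts could not be told apart.

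The RNA libraries, which the choice of BAM5 did not use, held 0 BAM5 counts in the library labelled nrpd1-3 and 1 in nrpe1-11, against 8 in Col-0. Col-0 was again the high library. With 0 counts taken as 3, the level in the library labelled nrpd1-3 was at most 0.425 of that in Col-0, and the exact upper limit was 0.664. The ratio of nrpe1-11 to Col-0 was 0.129, with a wide interval of 0.00291 to 0.962. These RNA counts lay under the minimum of 20 and entered no call.

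Because BAM5 is known from the phloem, 9 phloem marker genes were summed beside it. Their NRO sum was 41.7 CPM in the library labelled nrpd1-3 and 38.7 in nrpe1-11, against 36.8 in Col-0, and no marker was at 0. Of the 9, 4 reached the count minimum. Their log2 ratios ran from -0.19 to 1.56 in the library labelled nrpd1-3 and from -0.38 to 1.62 in nrpe1-11. Of these 4, 0 were called in either mutant. The shares among all genes were 9.31% higher and 6.99% lower in the library labelled nrpd1-3, and 12.1% and 11.1% in nrpe1-11. SUC2, the sucrose loader of companion cells, had 237 and 251 NRO counts in the library labelled nrpd1-3 and in nrpe1-11, against 47 in Col-0. These counts are not scaled for depth, and Col-0 was the shallowest NRO library. In RNA the phloem sums were 25.2 CPM in the library labelled nrpd1-3, 32.4 in nrpe1-11 and 24.0 in Col-0, from 12, 17 and 13 counts. APL, SEOR2 and SWEET12 were at 0 in every RNA library. In tissue of mixed cells, fewer cells of a type and less RNA per cell cannot be told apart.

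The chloroplast enzyme BAM1 was lower in RNA of both mutants. It had 91 RNA counts (191 CPM, 154 to 234) in the library labelled nrpd1-3 and 78 (149 CPM, 118 to 186) in nrpe1-11, against 233 (431 CPM, 377 to 490) in Col-0. The intervals of the mutants overlapped each other and lay below that of Col-0.

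The ratio to Col-0 was 0.443 (0.344 to 0.567) in the library labelled nrpd1-3 and 0.345 (0.264 to 0.448) in nrpe1-11. BAM1 was the 1 gene called lower of the 3 tested in RNA in each mutant, with 0 called higher. Among all 3297 genes tested in RNA, 11.9% were lower and 7.25% higher in the library labelled nrpd1-3, and 19% lower and 14% higher in nrpe1-11. The median log2 ratio of the 3 genes was -0.08 and -0.05, beside -0.02 and 0.04 over all genes. Scaling by library totals moved the BAM1 log2 RNA ratio to -0.47 from -1.16 in the library labelled nrpd1-3, which ended that call, and to -1.04 from -1.51 in nrpe1-11, which kept it.

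In NRO, BAM1 had 8580 counts (974 CPM) in the library labelled nrpd1-3 and 7560 (811 CPM) in nrpe1-11, against 2926 (1456 CPM) in Col-0. The log2 ratio was -0.58 and -0.84, short of the size needed for a call, and with library totals it was -0.05 and -0.11. Mesophyll markers, a list of 5 genes of photosynthesis, also had lower NRO sums, at 2775 CPM in the library labelled nrpd1-3 and 3643 in nrpe1-11, against 4962 in Col-0, with no marker at 0. Of the 5, 3 were called lower in the library labelled nrpd1-3 and 1 in nrpe1-11. For this and the marker lists below, the NRO shares among all genes were 6.99% lower and 9.31% higher in the library labelled nrpd1-3. In nrpe1-11 they were 11.1% lower and 12.1% higher. The RNA sums of the mesophyll markers were 3819 CPM in the library labelled nrpd1-3 and 6363 in nrpe1-11, against 5815 in Col-0. Guard cell markers, another place where BAM1 is known to act, summed to 8.74 CPM in NRO of the library labelled nrpd1-3 and 12.0 in nrpe1-11, against 12.4 in Col-0. Of the 2 guard cell markers tested, 0 were called in the library labelled nrpd1-3, and in nrpe1-11 KAT1, at the minimum through mutant libraries only, was higher (log2 ratio 2.57) and FAMA lower (-1.37). The sums of epidermis markers were 91.5 and 118 CPM against 87.6, and those of dividing cells 9.88 and 12.2 CPM against 6.96. Of the 4 epidermis markers 1 was higher and 1 lower in the library labelled nrpd1-3, and 2 were higher and 1 lower in nrpe1-11. Of the 2 tested markers of dividing cells 1 was higher in each mutant, with 0 counts in Col-0 and at the minimum through mutant libraries only. The part of these cell types in the BAM1 values was not tested.

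BAM3, the other main chloroplast β-amylase, was at nearly the same level in all genotypes. In NRO it had 9544 counts (1083 CPM) in the library labelled nrpd1-3 and 10439 (1120 CPM) in nrpe1-11, against 2054 (1022 CPM) in Col-0. In RNA it had 100 (210 CPM) and 112 (214 CPM) in the library labelled nrpd1-3 and in nrpe1-11, against 120 (222 CPM) in Col-0. The RNA intervals of the 3 genotypes overlapped throughout. The ratio to Col-0 in RNA was 0.945 (0.717 to 1.24) and 0.963 (0.737 to 1.26), and no BAM3 ratio was called.

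The balance between BAM3 and BAM1 can be given without any scaling, as the share of BAM3 in their summed counts, a quantity chosen after the values were seen. In NRO the share was 52.7% (51.9 to 53.4) in the library labelled nrpd1-3 and 58.0% (57.3 to 58.7) in nrpe1-11, against 41.2% (39.9 to 42.6) in Col-0. In RNA it was 52.4% (45.0 to 59.6) and 58.9% (51.6 to 66.0) in the library labelled nrpd1-3 and in nrpe1-11, against 34.0% (29.1 to 39.2) in Col-0. In both assays the share was higher in each mutant than in Col-0, with the mutants' exact binomial intervals above that of Col-0. Levels of BAM3 and BAM1 are not compared by it, since no gene length was used. Together BAM1 and BAM3 made up 97.0%, 94.9% and 95.6% of all β-amylase counts in NRO of the library labelled nrpd1-3, nrpe1-11 and Col-0.

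**Figure D2:**
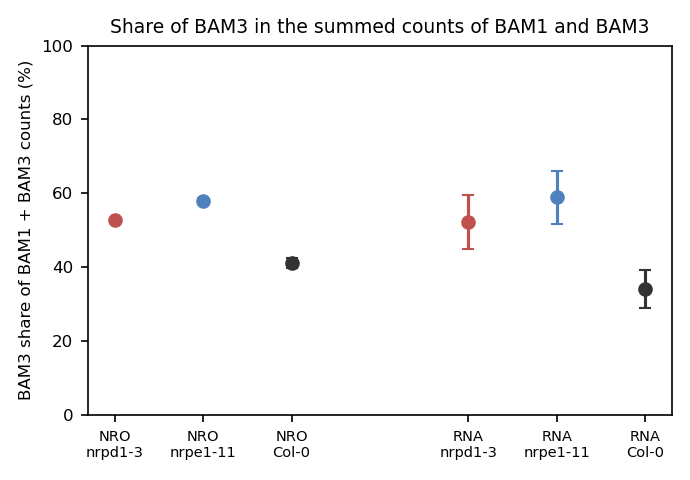
Share of BAM3 in the summed counts of BAM1 and BAM3 (%), 1 point per library with its exact 95% binomial interval. The 4 mutant libraries lie between 52.4% and 58.9%, above Col-0 at 41.2% in NRO and 34.0% in RNA.

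Of the plastid members without catalytic activity, BAM9 was called higher in NRO of nrpe1-11 against both other genotypes and BAM4 was not called. BAM9 had 181 NRO counts (20.5 CPM, 17.7 to 23.8) in the library labelled nrpd1-3 and 506 (54.3 CPM, 49.7 to 59.2) in nrpe1-11, against 52 (25.9 CPM, 19.3 to 33.9) in Col-0. Only nrpe1-11 was high, and the other libraries overlapped. The ratio of nrpe1-11 to Col-0 was 2.1 (1.58 to 2.85) and that to the library labelled nrpd1-3 was 2.64 (2.23 to 3.15). Both were called higher.

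RNA of BAM9 stayed under the count minimum, with 9 counts in the library labelled nrpd1-3 and 19 in nrpe1-11, against 4 in Col-0. The ratio of nrpe1-11 to Col-0 was 4.90 in RNA, with an interval of 1.63 to 19.8. The next locus, TLP11, overlaps BAM9 in the gene table and had 150 and 168 NRO counts in the library labelled nrpd1-3 and in nrpe1-11, against 10 in Col-0, log2 ratios of 1.72 and 1.80. Reads in such an overlap may not have been told apart, since the strand setting of the counting is not known, and TLP11 was high in both mutants while BAM9 was high in nrpe1-11.

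BAM4 had 86 NRO counts (9.76 CPM, 7.81 to 12.1) in the library labelled nrpd1-3 and 181 (19.4 CPM, 16.7 to 22.5) in nrpe1-11, against 34 (16.9 CPM, 11.7 to 23.6) in Col-0. The library labelled nrpd1-3 was the low one. Its ratio to Col-0 was 0.577 (0.384 to 0.886), and the ratio of nrpe1-11 to it was 1.99 (1.53 to 2.60), a log2 ratio of 0.97. Neither reached the size for a call, although with library totals the second did, at a log2 ratio of 1.17. In RNA BAM4 had 1 count in the library labelled nrpd1-3 and 5 in nrpe1-11, against 10 in Col-0.

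BAM6, a plastid member that is less well described, had 17 NRO counts (1.93 CPM, 1.12 to 3.09) in the library labelled nrpd1-3 and 41 (4.40 CPM, 3.16 to 5.97) in nrpe1-11, against 16 (7.96 CPM, 4.55 to 12.9) in Col-0. It was called lower in the library labelled nrpd1-3, at a ratio to Col-0 of 0.242 (0.115 to 0.513). It was not called in nrpe1-11, at 0.553 (0.303 to 1.05). Between the mutants it met the rule for higher in nrpe1-11, at 2.28 (1.27 to 4.28), but it had reached the count minimum through nrpe1-11 alone. The 17 and 16 counts behind the first call are themselves under that minimum. In RNA BAM6 had 0 counts in both mutants, against 1 in Col-0.

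For NRO of nrpe1-11 against the library labelled nrpd1-3, BAM6 (with the limit above) and BAM9 were the 2 of 10 genes called higher and 0 were lower, beside 3.35% higher and 4.66% lower among all genes. In RNA 0 of the 3 tested genes was called between the mutants, beside 4.82% higher and 5.31% lower among all genes.

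The remaining β-amylases were not called in any NRO comparison. BAM2, a plastid enzyme, had 65 NRO counts in the library labelled nrpd1-3 and 53 in nrpe1-11, against 13 in Col-0, which came to 7.38, 5.69 and 6.47 CPM. The nuclear proteins BAM7 and BAM8 were near their Col-0 levels. BAM7 had 14.4 CPM in the library labelled nrpd1-3 and 12.2 in nrpe1-11, against 16.4 in Col-0, and BAM8 had 7.83 and 7.83, against 9.95. Their intervals overlapped across the genotypes, and the RNA counts of BAM2, BAM7 and BAM8 ran between 1 and 10 per library. With Col-0 counts of 13 to 33 in NRO the ratios were loose, as in the 0.473 to 1.37 of BAM8 in the library labelled nrpd1-3.

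GWD1, the glucan, water dikinase that starts starch breakdown, had 445 NRO counts (50.5 CPM, 45.9 to 55.4) in the library labelled nrpd1-3 and 447 (48.0 CPM, 43.6 to 52.6) in nrpe1-11, against 68 (33.8 CPM, 26.3 to 42.9) in Col-0. Both mutants were above Col-0, at ratios of 1.49 (1.15 to 1.96) and 1.42 (1.10 to 1.86), under the size for a call. In RNA it had 28 counts (58.7 CPM) in the library labelled nrpd1-3 and 55 (105 CPM) in nrpe1-11, against 30 (55.5 CPM) in Col-0, and nrpe1-11 was the high library at a ratio of 1.89 (1.19 to 3.06). With library totals GWD1 was called higher in NRO of both mutants, at log2 ratios of 1.09 and 1.22, and in RNA of nrpe1-11, at 1.32.

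**Figure D3:**
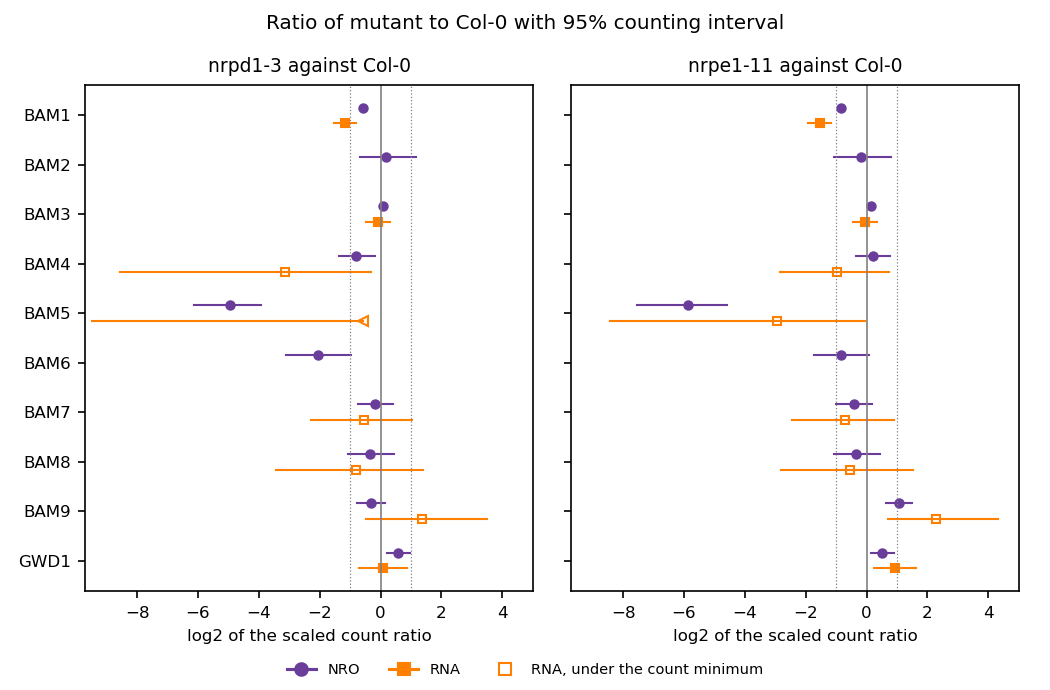
Log2 of the scaled count ratio of the library labelled nrpd1-3 (left) and of nrpe1-11 (right) to Col-0 with 95% counting intervals, for NRO (circles) and RNA (squares, open where the gene was under the count minimum); dotted lines mark a log2 ratio of 1 in either direction, an arrowhead marks the upper limit where the mutant count was 0, with the lower end open, and pairs with under 5 counts in all are left out. BAM5 lies far to the left in NRO of both mutants, BAM1 is left of the dotted line in RNA only, and BAM9 lies to the right in nrpe1-11.

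A test over both assays used edgeR's quasi-likelihood model with assay and genotype as terms. It has 2 residual degrees of freedom and takes as error how far the genotype difference varied between NRO and RNA, with that spread shared over genes. Its p-values thus measure neither the spread between plants nor each gene's own agreement between the assays. Of the 10 genes, 8 had the 20 counts in 2 libraries that it needs, all but BAM5 and BAM6. BAM2 had them in mutant libraries only. For the library labelled nrpd1-3 against Col-0 0 of the 8 passed at a Benjamini-Hochberg adjusted p under 0.05, beside 3.89% higher and 5.34% lower of 14530 genes. The nearest were BAM4, at a log2 fold change of -1.14 ± 0.420 (SE, adjusted p = 0.0625), and BAM1, at -0.94 ± 0.378 (adjusted p = 0.102), both from edgeR. Without NRO of Col-0, which leaves that genotype a single library, the BAM1 value was -1.32. Every fit without a library leaves some genotype in that state. The p-values of such fits serve only to show which calls hang on a single library.

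For nrpe1-11 against Col-0, 1 of the 8 rose (BAM9) and 1 fell (BAM1), beside 6.94% higher and 11.5% lower among all genes. BAM1 fell by 1.30 ± 0.381 on the log2 scale (SE, edgeR adjusted p = 0.00581). That call was lost with library totals (-0.54, edgeR adjusted p = 0.273) and when a library was left out, at edgeR adjusted p of 0.169 without NRO and 0.113 without RNA of the library labelled nrpd1-3, and of 0.309 without NRO and 0.273 without RNA of nrpe1-11. BAM9 rose by 1.18 ± 0.318 (SE, edgeR adjusted p = 0.00235). That call was lost with DESeq2 (adjusted p = 0.0937) and without NRO of nrpe1-11 (edgeR adjusted p = 0.174).

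For nrpe1-11 against the library labelled nrpd1-3, 1 of the 8 rose and 0 fell, beside 0.461% higher and 1.67% lower among all genes. The gene was BAM9, at 1.27 ± 0.297 (SE, edgeR adjusted p = 0.00348). Without NRO of the library labelled nrpd1-3 its edgeR adjusted p was 1, and without NRO of nrpe1-11 it was 0.532. BAM3 did not pass in any genotype contrast, at -0.05 ± 0.374 in the library labelled nrpd1-3 and -0.08 ± 0.373 in nrpe1-11 (SE, edgeR adjusted p = 0.957 and 0.919), and with library totals its values were 0.61 and 0.67, still without a call. GWD1 did not pass either, at 0.37 ± 0.289 and 0.55 ± 0.287 (SE, edgeR adjusted p = 0.507 and 0.188), but passed with library totals (edgeR adjusted p = 0.0196 and 0.00054).

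The same model compared NRO with RNA, with genotype as a block. BAM1 and BAM3 were higher in NRO and GWD1 was lower, which made 2 of 8 higher and 1 of 8 lower, beside 16.7% higher and 9.88% lower among all genes. The log2 fold change of NRO over RNA was 1.94 ± 0.317 for BAM1 (SE, edgeR adjusted p = 3.28e-08), 2.09 ± 0.315 for BAM3 (edgeR adjusted p = 1.51e-09) and -0.94 ± 0.24 for GWD1 (edgeR adjusted p = 0.000737). The median over all genes was 0.19. BAM1 and BAM3 kept their calls without any 1 of the 6 libraries, and GWD1 lost its call without RNA of nrpe1-11 (edgeR adjusted p = 0.103).

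**Figure D4:**
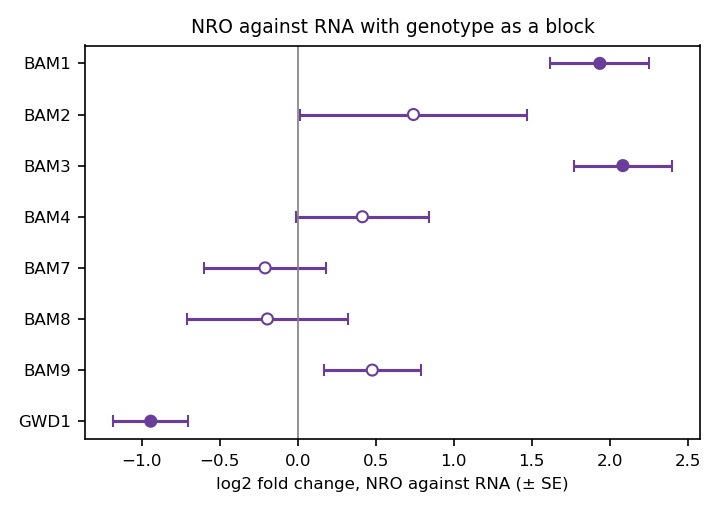
Log2 fold change of NRO over RNA (± SE) for the 8 genes with enough counts, from the model over 6 libraries with genotype as a block; filled points passed at an adjusted p under 0.05. BAM1 at 1.94 and BAM3 at 2.09 lie to the right and GWD1 at -0.94 to the left.

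Among the other genes of starch breakdown PHS1 and SEX4 were higher and AMY2 lower in NRO of both mutants, and PGLCT and AMY3 had higher RNA counts in both. The list held 18 genes besides the 10, and its members and those of the synthesis list were chosen with results of these data known. In NRO 17 reached the count minimum, and 3 were called higher and 1 lower in the library labelled nrpd1-3, with a median log2 ratio of 0.38, beside 9.31% higher and 6.99% lower among all genes. In nrpe1-11 5 were called higher and 2 lower, with a median of 0.59, beside 12.1% and 11.1%. Of the 17, 7 reached the minimum through mutant libraries only, which were the deeper ones in NRO, so these counts and medians are a description and support no direction. In RNA 4 reached it, each through mutant libraries only, and the same holds for their values.

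PHS1, the plastid glucan phosphorylase, had 327 NRO counts in the library labelled nrpd1-3 and 443 in nrpe1-11, against 29 in Col-0, and log2 ratios of 1.35 and 1.70. SEX4, which removes the phosphate that GWD1 adds, had 141 and 106 NRO counts in the library labelled nrpd1-3 and in nrpe1-11, against 11 in Col-0, and log2 ratios of 1.5 and 1.02. Both genes were high in both mutants, but SEX4 in nrpe1-11 fell short of a call with DESeq2 size factors, at 0.98. SEX4 reached the count minimum through the mutants only. In RNA PHS1 had 18 and 27 counts in the library labelled nrpd1-3 and in nrpe1-11, against 11 in Col-0, and reached the minimum through nrpe1-11 alone.

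In RNA, PGLCT, the glucose exporter of the chloroplast envelope, had 36 counts in the library labelled nrpd1-3 and 48 in nrpe1-11, against 10 in Col-0, and log2 ratios of 1.83 and 2.09. AMY3, a chloroplast α-amylase, had 22 and 33 RNA counts in the library labelled nrpd1-3 and in nrpe1-11, against 11 in Col-0, and log2 ratios of 1.05 and 1.46. Without the count minimum the lower of these became 0.95 and lost its call. Neither was called in NRO, where AMY3 stood at log2 ratios of 0.09 and 0.10 and PGLCT at 0.08 and 0.97. AMY2, another α-amylase, was the gene called lower in NRO of both mutants, with 61 counts in the library labelled nrpd1-3 and 36 in nrpe1-11, against 39 in Col-0, and log2 ratios of -1.45 and -2.24. With library totals its value in the library labelled nrpd1-3 was -0.93, which is not a call.

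In the model over both assays, 16 of the 18 breakdown genes had enough counts. For the library labelled nrpd1-3 2 rose and 1 fell, with a median log2 fold change of 0.45, beside 3.89% higher and 5.34% lower among all genes. For nrpe1-11 4 rose and 1 fell, with a median of 0.38, beside 6.94% and 11.5%. Genes could enter this model through the mutant libraries alone, as PWD below did. These counts and medians are therefore a description too and support no direction. PHS1, PGLCT and AMY2 had been named because they met the size rule in both mutants in these same libraries. Their p-values here are therefore not separate support for those calls. PHS1 rose in both mutants, by 1.17 ± 0.335 (SE, edgeR adjusted p = 0.00911) in the library labelled nrpd1-3 and by 1.48 ± 0.328 (edgeR adjusted p = 0.000108) in nrpe1-11. PGLCT rose in nrpe1-11, by 1.22 ± 0.292 (SE, edgeR adjusted p = 0.000434). AMY2 fell in both, by 1.51 ± 0.487 and 2.2 ± 0.516 on the log2 scale (SE, edgeR adjusted p = 0.0279 and 0.000326).

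The other genes that passed, named after their values were seen, were DPE1 in the library labelled nrpd1-3 (1.47 ± 0.359, SE, edgeR adjusted p = 0.00141) and PWD and PHS2 in nrpe1-11 (edgeR adjusted p = 0.0383 and 0.0315). PWD had 102 and 115 NRO counts in the library labelled nrpd1-3 and in nrpe1-11, against 12 in Col-0. Its RNA counts were 6 and 15, against 3 in Col-0, so it entered the model through mutant libraries only. DPE1, the plastid disproportionating enzyme, had 409 NRO counts in the library labelled nrpd1-3 and 196 in nrpe1-11, against 27 in Col-0. It was the gene of the list that fell in nrpe1-11 against the library labelled nrpd1-3, by 1.08 ± 0.302 on the log2 scale (SE, edgeR adjusted p = 0.0255). Each of these calls was lost without at least 1 library.

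PGLCT lost its call without NRO of nrpe1-11 (edgeR adjusted p = 0.0588). PHS1 lost its call in the library labelled nrpd1-3 without NRO or RNA of that genotype or NRO of Col-0 (edgeR adjusted p = 0.435, 0.0637 and 0.559), and in nrpe1-11 without NRO of nrpe1-11 or of Col-0 (edgeR adjusted p = 0.0638 and 0.156). AMY2 lost its calls without the same libraries (edgeR adjusted p = 0.595, 0.15 and 0.838 in the library labelled nrpd1-3, and 0.876 and 0.503 in nrpe1-11). DPE1 lost its call against Col-0 without NRO of the library labelled nrpd1-3 or of Col-0 (edgeR adjusted p = 0.816 and 0.839). With DESeq2, PHS1 and PGLCT passed in nrpe1-11 (adjusted p = 0.024 and 0.0414) and PHS1 did not in the library labelled nrpd1-3 (adjusted p = 0.186). DPE1 in the library labelled nrpd1-3 and PWD and PHS2 in nrpe1-11 did not pass with DESeq2 either (adjusted p = 0.255, 0.192 and 0.273). AMY2 had no adjusted p in DESeq2, and with library totals it did not pass in the library labelled nrpd1-3 (edgeR adjusted p = 0.192).

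The 20 genes of starch synthesis had medians near that of all genes. In NRO 19 reached the minimum, and 2 were called lower and 0 higher in each mutant, with medians of -0.06 in the library labelled nrpd1-3 and 0.04 in nrpe1-11. The shares among all genes were 6.99% lower and 9.31% higher, and 11.1% lower and 12.1% higher. Of the 19, 6 reached the minimum through mutant libraries only, so these counts and medians are a description and support no direction. APS1, the small subunit of ADP-glucose pyrophosphorylase, was lower in both, with 40 NRO counts in the library labelled nrpd1-3 and 21 in nrpe1-11, against 26 in Col-0, and log2 ratios of -1.45 and -2.37, the first of which became -0.94 with library totals and lost its call. APL4, a large subunit of that enzyme, was called lower in nrpe1-11, with 9 NRO counts and 55 in the library labelled nrpd1-3, against 13 in Col-0. It reached the minimum through the library labelled nrpd1-3 alone, and the 9 and 13 counts behind the call are under it. In RNA 6 were tested, with 1 called higher and 0 lower in the library labelled nrpd1-3, beside 7.25% and 11.9% among all genes. In nrpe1-11 0 were called, beside 14% higher and 19% lower. The gene called was the starch synthase gene SS1, which reached the minimum through the library labelled nrpd1-3 alone. It had 21 counts there and 16 in nrpe1-11, against 7 in Col-0. In the model over both assays 1 of 17 fell in each mutant, the starch synthase gene SS3, named after its values were seen (edgeR adjusted p = 0.0419 and 0.0234), beside 5.34% and 11.5% lower among all genes. SS3 lost both calls with library totals (edgeR adjusted p = 0.723 and 0.883) and with DESeq2 (adjusted p = 0.596 and 0.312). Both were also lost when some single libraries were left out, and the first without a count minimum (edgeR adjusted p = 0.0898).

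**Figure D5:**
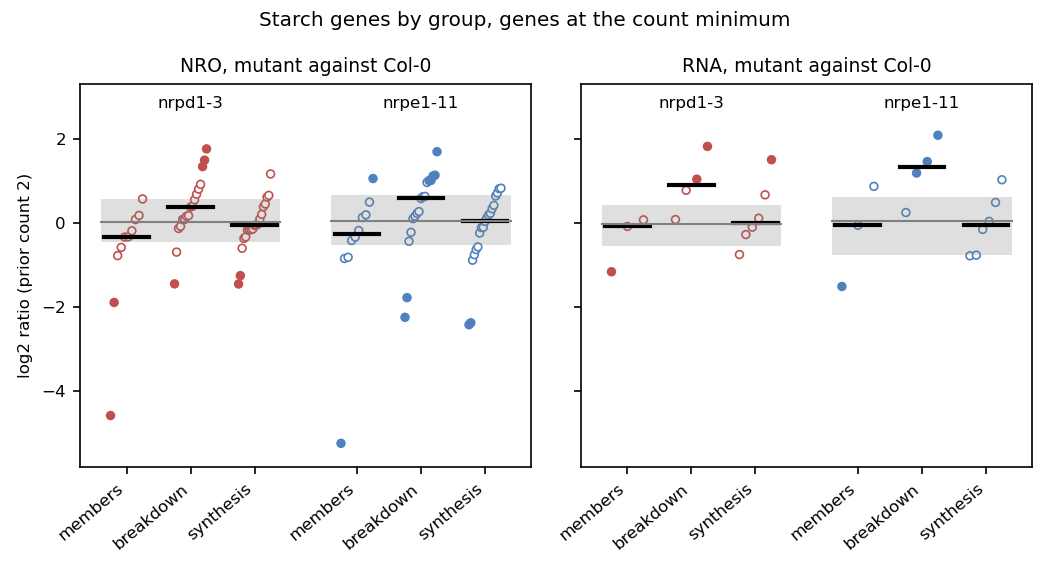
Log2 ratio to Col-0 (prior count 2) of each gene at the count minimum, for the β-amylases with GWD1 (members), the other breakdown genes and the synthesis genes, in NRO (left) and RNA (right); filled points met the size rule, black bars are medians, and the grey band and line are the middle 50% and the median of all genes tested. The 4 breakdown genes in RNA all reached the minimum through mutant libraries only. In NRO the breakdown genes have medians of 0.38 and 0.59, and the synthesis genes of -0.06 and 0.04. Some genes of both lists reached the NRO minimum through mutant libraries only, and the members take in BAM5, which chose the family.

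The genes whose pattern over the 6 libraries was most like that of BAM5 were ranked by the Euclidean distance of log2 CPM, centred within each assay, among 3297 candidates. They were AT5G13210 (distance 1.51), AT1G22830 (1.56), AT5G38710 (1.63), the ribosomal RNA gene AT3G41768 (1.79) and SEC1B (AT4G12120, 1.90), with a median distance of 4.31 over all candidates. The sixth gene lay at 1.90 as well. AT5G13210 had 113 NRO counts in the library labelled nrpd1-3 and 103 in nrpe1-11, against 356 in Col-0, and its RNA counts were 4 and 2, against 39. The order rests on the NRO values of BAM5 that chose the family, and partly on its 0, 1 and 8 RNA counts. All of the named genes but AT3G41768 reached the RNA count minimum through Col-0 only, the library in which they were high. The ranking is therefore a description and supports no direction.

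The loci next to the 10 genes, taken from their order along the chromosome in the gene table, held calls in both directions in NRO. Of 20 neighbours 9 reached the count minimum in NRO. Of these 2 were called higher and 1 lower in each mutant against Col-0, beside 9.31% higher and 6.99% lower among all genes for the library labelled nrpd1-3 and 12.1% and 11.1% for nrpe1-11. BAM5 lies between FH3, with 4, 0 and 2 NRO counts in the library labelled nrpd1-3, nrpe1-11 and Col-0, and ABCG41, with 35, 24 and 7. ABCG41 had log2 ratios of 0.18 and -0.40 and was not called, and FH3 was under the count minimum and could not be called. The neighbours called higher were TLP11 and MIR168b, a microRNA locus next to BAM8, with 77 NRO counts in the library labelled nrpd1-3 and 58 in nrpe1-11, against 1 in Col-0. Both reached the count minimum through mutant libraries only, so the neighbour counts are a description and support no direction. The neighbour called lower was AT4G00500, which overlaps BAM2 in the gene table, at log2 ratios of -1.03 and -1.19.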

How the data were processed

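The authors deposited whole-number read counts per gene, made with HTSeq after Trimmomatic 0.33 and TopHat2 2.1.0 on TAIR10, per the submitters' processing notes. Per the labels' protocols, the kit was stranded, and the RNA samples repeat the text on bead capture. For HTSeq, no version, strand setting or annotation is given in the sources used here. Reads aligned more than once were assigned to no gene. The 5 summary lines stayed out of all totals, and the 3 chromatin samples were not analysed here.

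Within an assay, genes with 20 counts in 1 library were TMM-scaled (edgeR 4.0.16, R 4.3.3, limma 3.58.1), factors applied to totals of all genes. Log2 ratios used a prior count of 2, with exact conditional binomial intervals. The model over 6 libraries was edgeR's quasi-likelihood fit with Benjamini-Hochberg adjustment. SE is the fold change over the square root of F. Alternatives were library totals, DESeq2 1.42.0, no filter, a prior count of 0.5 and leaving out each library. Both procedures were tested on simulated data.

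Gene names and neighbours came from a table of TAIR10.1 that matched 31912 locus tags. Members, lists and tests were chosen with earlier results of these data known. Named genes were the 10 members, NRPD1 and NRPE1, up to 4 starch genes per list and direction that met the size rule in both mutants (if under 2, up to 2 that met it in 1 comparison) and the 5 genes most like BAM5. Sequences were not used here.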

Additional observations from a re-analysis of the deposited data

How the results depend on the processing

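Within an assay, leaving out a library removes both comparisons that use it, and the other was not rerun. No paired analysis was possible because each group had 1 library per assay, and the model over both assays held genotype as a term instead. RNA depth limits calls to 3 of the 10 genes. All counts of called genes among the 10 were within 1.5 times the reported ones under every alternative run, except as follows, and the cause was not tested. Scaling by library totals gave 0 called in RNA of the library labelled nrpd1-3 against Col-0, 2 in RNA of nrpe1-11 against Col-0 and 1 in the model for the library labelled nrpd1-3 against Col-0. Without a count minimum 3 were called in RNA of each mutant against Col-0. DESeq2 called 1 in the model for nrpe1-11 against Col-0 and 0 for nrpe1-11 against the library labelled nrpd1-3, where 6 of the 8 genes, BAM9 among them (1.19), got no adjusted p. Leaving out each library in turn gave 0 to 1 calls for the library labelled nrpd1-3 against Col-0, 0 to 2 for nrpe1-11 against Col-0 and 0 to 2 between the mutants.

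Values in the model that changed sign were all uncalled. With library totals, for the library labelled nrpd1-3 against Col-0, BAM3 became 0.61, BAM7 0.27, BAM8 0.10 and BAM9 0.53 on the log2 scale. For nrpe1-11 against Col-0 BAM2 became 0.73, BAM3 0.67, BAM4 0.58, BAM7 0.18 and BAM8 0.28. Between the mutants BAM3 became 0.056 and BAM8 0.18, and for NRO over RNA BAM7 became 0.029 and BAM8 0.054. With DESeq2 BAM9 became 0.12 for the library labelled nrpd1-3 against Col-0, BAM2 0.28 for nrpe1-11 against Col-0, and BAM2 0.098 and BAM8 0.025 between the mutants, the last 3 with no adjusted p. Leaving out each library in turn spread BAM3 from -0.21 to 0.084 and BAM9 from -0.33 to 0.96 for the library labelled nrpd1-3 against Col-0. For nrpe1-11 against Col-0 it spread BAM2 from -0.23 to 0.80, BAM3 from -0.23 to 0.089 and BAM4 from -1.41 to 0.17. Between the mutants it spread BAM3 from -0.14 to 0.082, BAM7 from -0.46 to 0.036, BAM8 from -0.12 to 0.41 and GWD1 from -0.078 to 0.73, and for NRO over RNA BAM4 from -0.049 to 1.12.

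Library totals moved the median log2 ratio of all genes by 0.51 in NRO and 0.65 in RNA for the library labelled nrpd1-3 against Col-0, and by 0.71 and 0.45 for nrpe1-11. In NRO the calls were then 3854 higher and 366 lower for the library labelled nrpd1-3, beside 1498 and 1124, and 5673 higher and 516 lower for nrpe1-11, beside 1948 and 1778. In RNA they were 927 higher and 109 lower, beside 239 and 392, and 886 higher and 365 lower, beside 463 and 628. In the model, calls over all genes for the library labelled nrpd1-3 against Col-0 were 1341 as reported, 2546 with library totals, 343 with DESeq2 and 66 to 2232 without 1 library. For nrpe1-11 against Col-0 they were 2681, 4848, 1041 and 413 to 3276, between the mutants 310, 88, 37 and 8 to 1243, and for NRO over RNA 3866, with 2105 in DESeq2 and 1743 to 3983 without 1 library. Without a count minimum the size rule called 1956 genes between the mutants in NRO, beside 1287, and 1094, 1736 and 620 in RNA for the library labelled nrpd1-3, nrpe1-11 and between the mutants, beside 631, 1091 and 334.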
